A study of Mus musculus with 8 samples.

Results

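The serpin family was examined as all rows of the deposited count table whose gene symbol begins with Serpin, a clade letter from a to i and a digit. This rule found 64 genes among the 24537 in the table. They were measured by RNA sequencing of EpCAM-positive cells sorted from pancreatic tumours of FVB/NJ mice. Every mouse carried KrasLSL-G12D together with Tp53f/f, the luciferase allele Rosa26LSL-Luc and Pdx1-Cre, so that Cre under the Pdx1 promoter recombines these alleles in the pancreatic epithelial lineage. Dosing began at 42 to 43 days of age. All 8 mice received gemcitabine, a nucleoside chemotherapy, at 50 mg/kg on days 1 and 4. They also received 25 mg/kg of antibody on days 1, 3 and 5, which was control IgG in 4 mice and an antibody against the cytokine LIF in the other 4. Tumours are named here by arm and mouse number. Values for single tumours are given in the order IgG-203, IgG-343, IgG-345 and IgG-393, then LIF-227, LIF-310, LIF-354 and LIF-391, where LIF stands for the anti-LIF arm. Each tumour was collected separately on day 6, at about 48 days of age, and gave 1 library. No group without gemcitabine is used here, so every difference below is between antibodies on a background of gemcitabine.

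Serpins are a superfamily of proteins that mostly inhibit proteases. A loop exposed on the inhibitor acts as bait, and the protease that cuts it is trapped in a covalent complex. Clade a holds secreted relatives of antitrypsin and antichymotrypsin, several of them acute-phase proteins, whereas clade b members mostly stay inside the cell and guard it against granule and lysosomal proteases. Clades c to g act mainly in blood and matrix on coagulation, plasminogen activation and complement. Some members inhibit no protease: Serpinh1 is a collagen chaperone, and Serpina6 and Serpina7 carry steroid and thyroid hormones.

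Counts in genes ran from 15135457 to 18972281 per library. Markers of cells other than the sorted epithelium were present in all 8 libraries and differed between the arms. A list of 18 myeloid markers took 1.68% to 2.15% of counts in IgG tumours and 2.99% to 4.84% in anti-LIF tumours, and 14 of its 18 genes rose. Of 18 acinar markers, genes of the digestive-enzyme cells of the pancreas, 17 were tested and 14 rose, and the list took 0.0462% to 0.239% of counts against 0.345% to 1.81% (Amy2a5 was at 0 in all libraries). Of 16 epithelial markers 13 fell, and the list took 0.612% to 0.750% against 0.193% to 0.378%. In sorted bulk samples fewer cells of a type and less RNA per cell cannot be told apart.

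Detection divided the family sharply. Of the 64 genes, 13 had 0 counts in all 8 libraries, which allows up to 0.0221 counts per 1000000 (CPM) each over the pooled libraries, from a limit of 3 counts that covers counting error only. They include all 4 Serpinb3 genes, relatives of the human squamous cell carcinoma antigens. A further 25 genes had counts in at least 1 library but did not pass the filter on low counts, and 26 passed it and were tested. Serpina1a, one of the antitrypsin genes that the liver secretes in large amounts, had 1 count in all, and Serpinc1, which encodes antithrombin, had 31. Reads of the Serpina1 genes can be shared between close copies: 51.4% of the 50-base stretches of Serpina1a transcripts in GENCODE M21 also occur in another serpin gene, chiefly Serpina1c.

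Levels are given in FPKM, the authors' unit of reads scaled to transcript length and library size. Serpinb6a, an intracellular inhibitor of trypsin-like proteases and cathepsin G, stood at 111 ± 17.8 FPKM with IgG and 98.5 ± 11.5 with anti-LIF (mean ± SD, n = 4 in each arm here and below). Below it came the chaperone gene Serpinh1, at 42.0 ± 8.76 and 37.9 ± 8.77. They were followed by Serping1 (24.6 ± 17.4 and 32.4 ± 15.3 FPKM), Serpinb1a (25.9 ± 5.29 and 19.6 ± 2.45), Serpina3n (18.9 ± 15.5 and 14.4 ± 6.29) and Serpinb6b (17.1 ± 5.01 and 12.3 ± 2.93). Serpinb2, Serpinb9 and Serpinb8 came next, with means over the 8 libraries of 12.9, 8.61 and 7.13 FPKM. From Serping1 downwards, neighbours in this order lay within the spread between tumours.

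**Figure D1:**
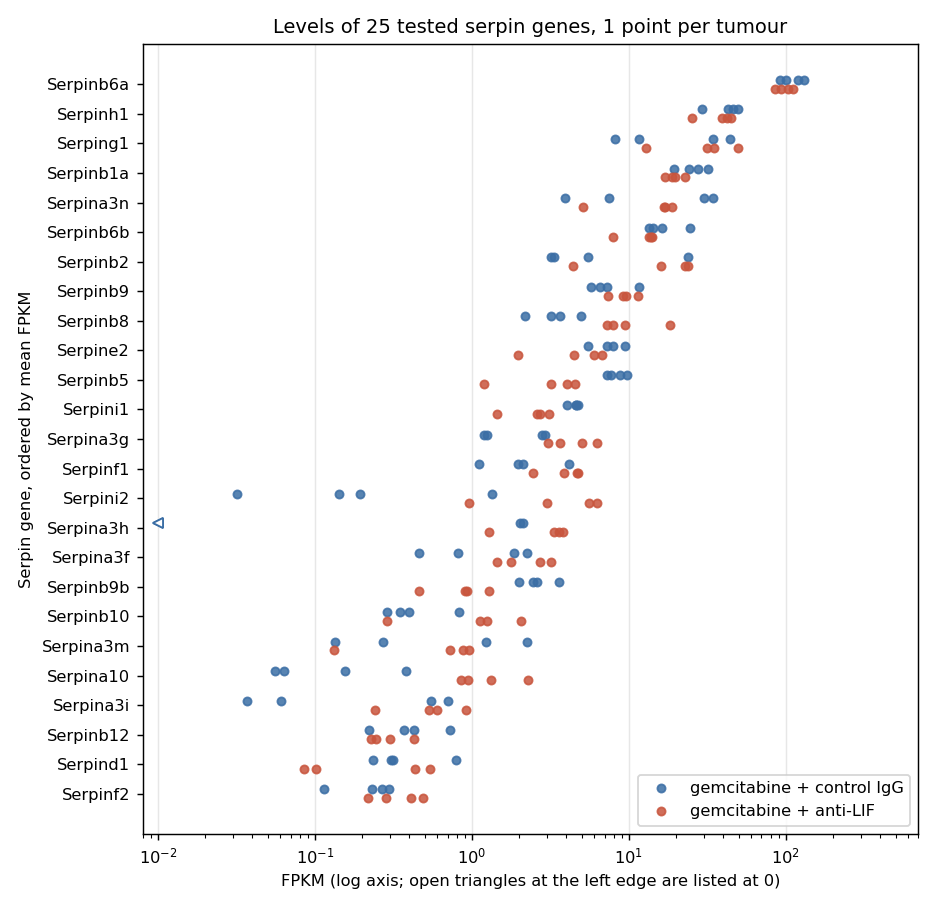
FPKM on a log axis for 25 tested serpin genes, ordered by mean FPKM, with 1 point per tumour (blue, IgG; red, anti-LIF). Serpinb6a has a mean of 105 FPKM over all libraries, and the open triangle marks 2 overlapping IgG tumours in which Serpina3h is listed at 0.

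The arms were compared gene by gene with edgeR's quasi-likelihood test on the counts, with p-values adjusted by the Benjamini-Hochberg method over all 14711 tested genes and a threshold of 0.05. With anti-LIF 4 serpin genes rose (Serpinb8, Serpini2, Serpina10 and Serpina3g) and 3 fell (Serpinb5, Serpinb9b and Serpini1). These 7 of 26 (26.9%) stand beside 32.2% of all tested genes called in either direction, 15.7% higher and 16.5% lower, so the family was not called more often than genes in general. Of the 4 that rose, Serpina10 and Serpini2 passed the filter on low counts through the anti-LIF arm, where they were high. A positive log2 fold change means a higher level with anti-LIF. Of the 26 estimates 13 were positive and 13 negative, with a median of 0.19 beside −0.01 for all tested genes. In 6 tested members, all among the 7 called, the CPM of the arms did not overlap, beside 35.7% of all tested genes. The fits rest on 4 mice an arm. Without IgG-343 and IgG-345 together, a choice made after seeing that both lack Serpina3h, 0 members were called higher (0 of 28 tested) and only Serpinb9b was called lower, while calls over all genes went from 4731 to 1437. Scaling by library size alone left the 7 calls in place but moved the share of all called genes that were higher from 48.7% to 28.6%.

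**Figure D2:**
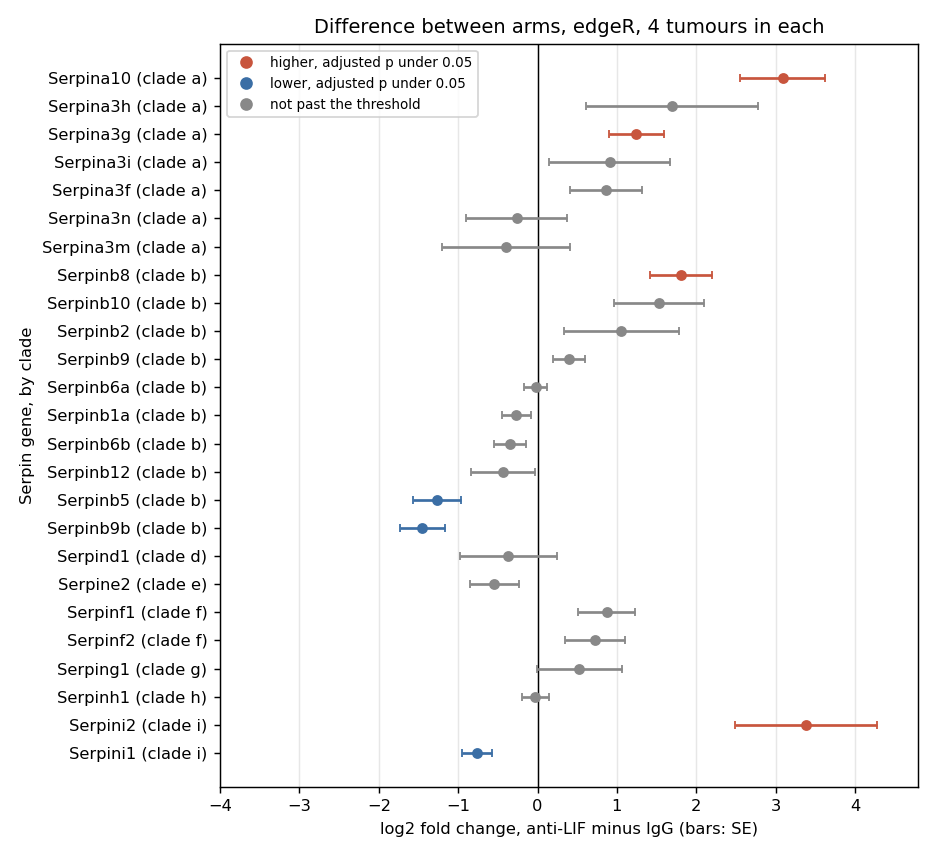
Log2 fold change, anti-LIF minus IgG, with its standard error (SE) for 25 tested serpin genes, grouped by clade. Red and blue points passed the adjusted threshold as higher and lower (4 and 3 genes), and grey points did not.

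Clade a has 26 members, 25 of them in 1 stretch of chromosome 12 from 103616675 to 104414329 (mm10), and 7 were tested. Among the 7, 2 rose and 0 fell, with a median log2 fold change of 0.91. Of all tested genes 15.7% were higher and 16.5% lower, with a median of −0.01. Most of the 7 are neighbouring Serpina3 copies that can share reads, so they are not separate measurements. The clade a median was 0.58 without IgG-343, 1.41 without IgG-203 and 0.28 without IgG-343 and IgG-345 together. Serpina10, the protein Z-dependent inhibitor of coagulation factor Xa (chr12:103616675-103631444), was low throughout. It stood at 0.688, 0.275, 0.203 and 0.108 CPM in the IgG tumours, and at 1.98, 2.60, 4.57 and 1.75 CPM in the anti-LIF tumours. Its counts were 12, 5, 4 and 2 with IgG and 31, 39, 74 and 26 with anti-LIF. It thus passed the filter on low counts through the anti-LIF arm, where it was high. The arms did not overlap, and Serpina10 rose 8.51-fold (log2 fold change 3.09 ± 0.54 SE, edgeR adjusted p = 0.00540), and by 3.76 on the log2 scale without IgG-203. The acinar list was also highest in IgG-203 among the IgG tumours (0.239% of counts), and in the anti-LIF arm both ran from LIF-354 (1.81%) through LIF-310 and LIF-227 to LIF-391 (0.345%). The part of acinar RNA in the Serpina10 values was not tested.

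Most tested clade a genes belong to the Serpina3 cluster, mouse-specific copies related to human antichymotrypsin. Serpina3g, an inhibitor of lysosomal cathepsins in the cytosol of leukocytes (chr12:104214544-104241934), stood at 6.54, 2.97, 7.34 and 2.97 CPM in the IgG tumours and at 8.88, 9.21, 16.1 and 12.9 CPM in the anti-LIF tumours. Every anti-LIF tumour lay above every IgG tumour, and Serpina3g rose 2.37-fold (1.25 ± 0.35 SE, adjusted p = 0.0267). Its call was lost, with the direction kept, without IgG-343 (adjusted p = 0.0667), IgG-393 (0.0610), LIF-354 (0.0688) or LIF-391 (0.0559). In the count table the row of Serpina3g spans all of Serpina3f on the same strand, an overlap of 6497 bases. Also, 15.5% of its 50-base stretches occur in other serpin genes, so the division of reads among these copies is uncertain. Serpina3f stood at 3.32 ± 1.96 and 6.02 ± 1.98 CPM (adjusted p = 0.173). Its lowest tumours were IgG-343 (1.15 CPM), IgG-345 (2.23 CPM) and LIF-227 (4.22 CPM).

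The stretches before the start of Serpina3g and its neighbours are shown because LIF signals through STAT3 and these copies share a match to the STAT motif TTCNNNGAA. Each line gives the 130 bases before the start, 5′ to 3′ on the gene's strand, from the RefSeq promoter table of build GRCm38.p6, with the match in capitals. They lie at chr12:104214414-104214543 for Serpina3f, chr12:104236017-104236146 for Serpina3g and chr12:104262992-104263121 for Serpina3i, all on the plus strand. This start of Serpina3g lies inside the longer row of the count table. RefSeq gives Serpina3f 2 starts: the stretch precedes the first, base 104214544, where the Serpina3g row of the count table also begins, whereas the Serpina3f row begins at the second, base 104214633. Measured from the second start the same match lies at −210 to −202.
Serpina3f: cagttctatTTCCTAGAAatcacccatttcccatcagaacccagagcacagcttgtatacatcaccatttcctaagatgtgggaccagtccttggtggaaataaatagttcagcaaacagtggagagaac
Serpina3g: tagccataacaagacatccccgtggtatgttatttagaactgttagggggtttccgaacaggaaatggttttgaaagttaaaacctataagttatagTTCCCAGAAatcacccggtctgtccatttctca
Serpina3i: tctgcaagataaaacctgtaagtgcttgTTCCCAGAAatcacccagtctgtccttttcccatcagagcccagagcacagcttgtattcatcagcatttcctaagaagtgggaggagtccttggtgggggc

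Aligned on the match without gaps, Serpina3g and Serpina3i were identical at 50 of 59 bases (84.7%), Serpina3f and Serpina3i at 38 (64.4%) and Serpina3f and Serpina3g at 37 (62.7%). The 59 bases lie around the match, some of them beyond the printed stretches. Serpina3f and Serpina3i also share a long run of bases that lies at different distances after the match. Without gaps that run is out of step, so these percentages do not rank the copies by likeness. Promoter entries, of 300 bases from 250 before to 50 after a start, were found for 53 of the 64 members, 62 entries in all. A match to TTCNNNGAA, searched on both strands, was present in 11 of these 62 entries and in 8.3% of 32851 promoters of all genes. The 8 members with a match were Serpina3f, Serpina3g, Serpina3i, Serpina11, Serpina1f, Serpinb2, Serpinb6a and Serpinb9c, and entries for alternative starts of 1 gene overlap. A match is a description of letters. Of the 8, 5 were tested, and Serpina3g alone among these passed the threshold.

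The other tested Serpina3 genes varied widely among the tumours of 1 arm. Serpina3n, an acute-phase inhibitor of granzyme B and cathepsin G (chr12:104406708-104414329), stood at 72.0, 10.1, 19.3 and 83.9 CPM in the IgG tumours and at 15.5, 49.7, 44.2 and 45.3 CPM in the anti-LIF tumours. IgG-343, IgG-345 and LIF-227 were low, and the arms overlapped throughout (log2 fold change −0.26 ± 0.64 SE, adjusted p = 0.778). Serpina3m gave the same 3 lowest tumours, with 2.35, 0.275, 0.557 and 4.38 CPM against 0.319, 2.003, 1.85 and 1.55 (adjusted p = 0.731). Serpina3i also had these 3 lowest, with 1.78, 0.165, 0.101 and 1.41 CPM against 0.766, 1.47, 2.53 and 1.68 (adjusted p = 0.382).

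Serpina3h, listed with a non-coding transcript (chr12:104247896-104254405), was the extreme case. It had 0 counts in IgG-343 and IgG-345, which allows up to 0.165 and 0.152 CPM, but 83 and 95 counts in IgG-203 and IgG-393. In the anti-LIF tumours it had 60, 129, 152 and 149 counts. The log2 fold change of Serpina3h was 1.69 ± 1.08 SE (adjusted p = 0.258), and 21.9% of its 50-base stretches are shared with other serpin genes. Without IgG-343 and IgG-345 it was 0.69 (adjusted p = 0.257), so its size rests on these 2 mice, and whether they differ from the others at this locus was not tested.

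Serping1 (chr2:84765360-84775429), the C1 inhibitor that blocks the first proteases of complement and the contact system, lies on another chromosome and had the same 3 lowest tumours. It stood at 72.3, 18.1, 26.2 and 93.6 CPM in the IgG tumours and at 33.8, 72.6, 80.5 and 116 CPM in the anti-LIF tumours. IgG-343, IgG-345 and LIF-227 were low, LIF-391 was the highest, and the arms overlapped (log2 fold change 0.53 ± 0.54 SE, adjusted p = 0.479). A list of 14 fibroblast markers took 0.0770%, 0.0273%, 0.0374% and 0.0964% of counts in the IgG tumours and 0.0263%, 0.0835%, 0.0656% and 0.102% in the anti-LIF tumours, so its 3 lowest tumours were also IgG-343, IgG-345 and LIF-227. All 14 markers were tested, 2 rose and 0 fell, and none was at 0 in all libraries. The part of fibroblast RNA in these serpin values was not tested.

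**Figure D3:**
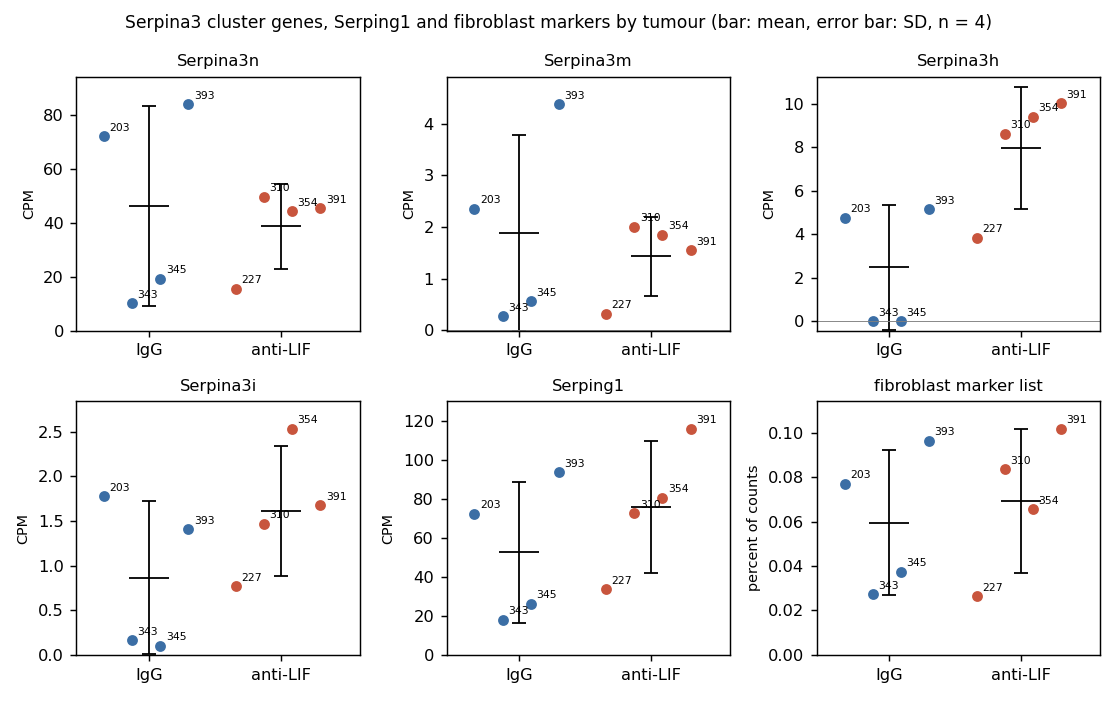
CPM of 4 Serpina3 genes and Serping1, and the share of counts in the fibroblast marker list, for each tumour labelled by mouse number, with mean and SD (n = 4). In each of the 4 Serpina3 genes, in Serping1 and in the fibroblast list, IgG-343, IgG-345 and LIF-227 are the 3 lowest. Serpina3h is at 0 in IgG-343 and IgG-345.

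Of 27 clade b genes on chromosomes 1 and 13, 10 were tested, 1 rose and 2 fell, with a median log2 fold change of −0.15. Among all tested genes 15.7% were higher and 16.5% lower. Serpinb8, an inhibitor of the proprotein convertase furin (chr1:107590006-107608978), stood at 11.2, 8.51, 12.4 and 15.5 CPM in the IgG tumours and at 80.7, 23.3, 34.5 and 28.6 CPM in the anti-LIF tumours. LIF-227 was far above the other 3 of its arm, but all 4 lay above every IgG tumour. Serpinb8 rose 3.51-fold (1.81 ± 0.39 SE, adjusted p = 0.0105), and by 1.28 on the log2 scale without LIF-227. That tumour also held the highest share of the myeloid list, 4.84% of counts against 2.99% to 3.34% in the other anti-LIF tumours. With the myeloid list as the scaling reference, log2 fold changes dropped by a median of 1.01, and 1.8% of the genes called were higher. On that scale 3 members passed as higher and 10 as lower. The 3 were Serpinb8 (0.63, edgeR adjusted p = 0.0449), Serpina10 (2.145, 0.00571) and Serpini2 (2.44, 0.0136). Serpina3g did not pass (0.32, adjusted p = 0.450). The part of myeloid RNA in the Serpinb8 and Serpina3g values was not tested.

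Serpinb5, or maspin, an epithelial serpin that lacks protease inhibitor activity (chr1:106861180-106883348), went the other way. It stood at 25.98, 23.0, 24.5 and 29.4 CPM with IgG and at 4.47, 14.6, 10.4 and 13.3 CPM with anti-LIF. The IgG tumours differed by at most 1.28-fold among themselves, and LIF-227 was again the extreme of its arm, at the low end. Serpinb5 fell 2.4-fold (−1.26 ± 0.31 SE, adjusted p = 0.0159). The epithelial list ran in the same order of arms and was also lowest in LIF-227, at 0.193% of counts. With the epithelial list as the scaling reference the log2 fold change of Serpinb5 was −0.29 (adjusted p = 0.277). That scale moves all genes up by a median of 1.08, and 98.7% of the genes called on it were higher. The part of epithelial RNA in the Serpinb5 values was not tested.

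Serpinb9b, a mouse copy related to the granzyme B inhibitor Serpinb9 (chr13:33027414-33040558), stood at 7.97, 5.82, 4.81 and 5.84 CPM with IgG and at 1.28, 3.14, 2.29 and 2.22 CPM with anti-LIF. The arms did not overlap, and Serpinb9b fell 2.74-fold (−1.45 ± 0.28 SE, adjusted p = 0.00749). Scaled to the epithelial list it no longer passed (−0.43, adjusted p = 0.168), and the part of epithelial RNA in its values was not tested. Only 0.39% of its 50-base stretches occur in Serpinb9, which lies next to it on chromosome 13. Serpinb9 itself stood at 31.6 ± 9.71 and 41.8 ± 5.45 CPM (log2 fold change 0.40 ± 0.20 SE, adjusted p = 0.154), and it passed as higher without IgG-203 (0.63, adjusted p = 0.0183).

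The 130 bases before the start of Serpinb9 (chr13:33004411-33004540, plus strand, GRCm38.p6) are shown for a match to the interferon motif (GAAA, any 2 bases, GAAA), which was read on the opposite strand and stands in capitals as its complement. The motif occurred in 3 of the 62 promoter entries, those of Serpinb9, Serpinb6a and Serpina3a, and in 3.4% of all promoters.
Serpinb9: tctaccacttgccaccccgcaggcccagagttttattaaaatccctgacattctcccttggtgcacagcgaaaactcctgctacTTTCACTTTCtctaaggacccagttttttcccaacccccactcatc

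The most abundant clade b genes differed little between the arms beside their spread. Serpinb6a stood at 189 ± 24.5 and 186 ± 33.3 CPM (log2 fold change −0.03 ± 0.14 SE, adjusted p = 0.908). Serpinb1a, which inhibits neutrophil elastase, stood at 59.6 ± 13.4 and 49.5 ± 9.52 CPM (adjusted p = 0.292), and Serpinb6b at 37.8 ± 9.69 and 29.7 ± 5.58 (adjusted p = 0.207). In each of the 3 the arms overlapped. Serpinb12 stood at 0.852 ± 0.439 and 0.633 ± 0.169 CPM (adjusted p = 0.436).

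The neighbours Serpinb2 and Serpinb10 on chromosome 1 varied widely between tumours. Serpinb2, the plasminogen activator inhibitor 2 of macrophages and stressed epithelium (chr1:107511510-107525600), stood at 12.5, 7.69, 8.21 and 55.2 CPM with IgG and at 46.1, 60.03, 10.9 and 57.2 CPM with anti-LIF. IgG-393 was high and LIF-354 low, each among the values of the opposite arm, and the difference was not past the threshold (1.06 ± 0.72 SE, adjusted p = 0.288). Without IgG-393 the log2 fold change of Serpinb2 was 2.20 and passed (adjusted p = 0.0277). Serpinb10, a nuclear serpin of myeloid cells, stood at 3.33, 1.48, 1.72 and 1.19 CPM against 10.5, 1.27, 5.01 and 5.58. It did not pass (1.53 ± 0.57 SE, adjusted p = 0.0682) but did without LIF-310 (1.88, adjusted p = 0.0152). Serpinb2 shares 10.4% of its 50-base stretches with Serpinb10.

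**Figure D4:**
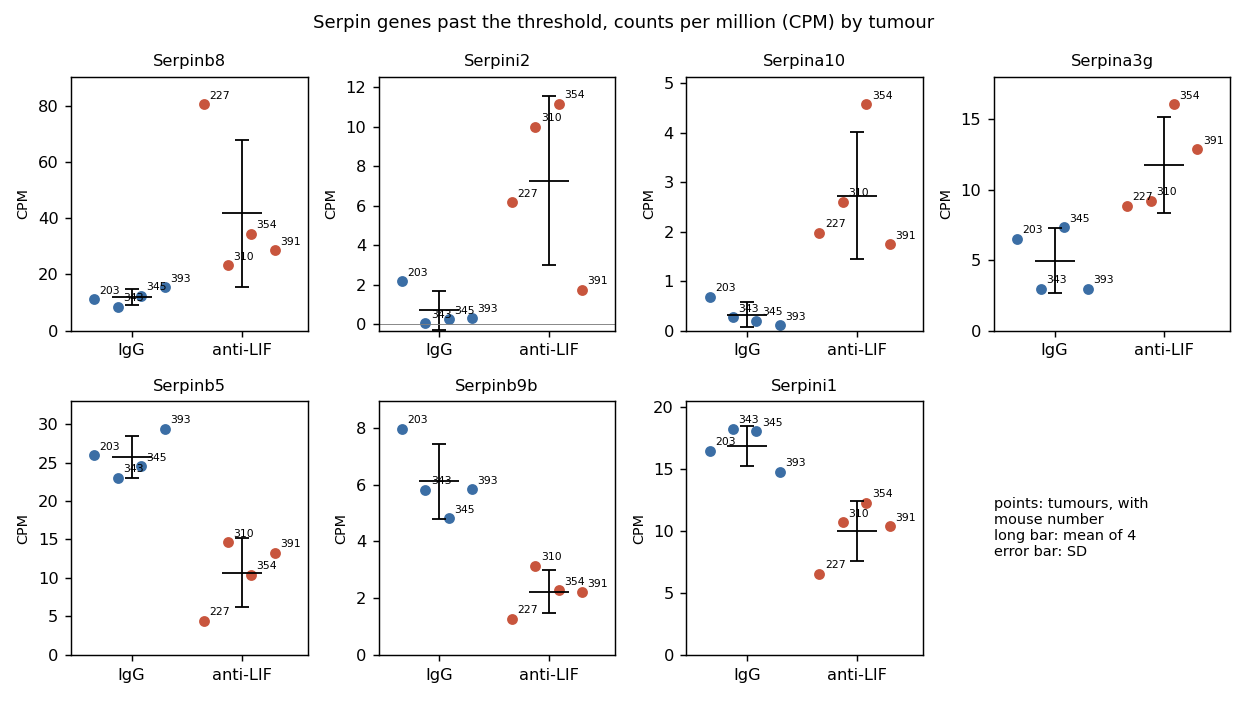
CPM by tumour for the 7 serpin genes past the threshold, with mouse numbers, mean and SD (n = 4). The arms do not overlap except in Serpini2, where LIF-391 (1.75 CPM) lies below IgG-203 (2.18 CPM).

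In clade e, Serpine2, protease nexin 1, which inhibits thrombin and urokinase (chr1:79794321-79858665), stood at 18.5 ± 3.78 and 12.7 ± 5.16 CPM (−0.55 ± 0.31 SE, adjusted p = 0.202). Serpind1, heparin cofactor II, a thrombin inhibitor of plasma, was near the filter at 1.01 ± 0.595 and 0.770 ± 0.598 CPM (adjusted p = 0.670).

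In clade f, Serpinf1, the secreted anti-angiogenic factor PEDF (chr11:75410029-75422623), stood at 3.38, 2.03, 3.95 and 7.24 CPM with IgG and at 5.30, 8.95, 7.29 and 8.87 CPM with anti-LIF. IgG-393 lay within the anti-LIF range, and Serpinf1 did not pass (0.87 ± 0.36 SE, adjusted p = 0.0936), although it did without that tumour (1.28, adjusted p = 0.0221). Serpinf2, or antiplasmin, stood at 0.601 ± 0.228 and 0.999 ± 0.327 CPM (adjusted p = 0.173). The collagen chaperone Serpinh1 (chr7:99345375-99353239) stood at 128, 118, 82.7 and 122 CPM against 81.9, 127, 113 and 121, and the arms overlapped almost completely (−0.03 ± 0.17 SE, adjusted p = 0.915).

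Both clade i genes lie on chromosome 3 and were called in opposite directions. Serpini2, named pancpin after the pancreas (chr3:75242357-75270078), stood at 2.18, 0.0549, 0.253 and 0.324 CPM in the IgG tumours, with 1 count in IgG-343, and at 6.19, 10.02, 11.2 and 1.75 CPM in the anti-LIF tumours. IgG-203 lay above LIF-391, so the arms overlapped there. Serpini2 counts were 38, 1, 5 and 6 with IgG and 97, 150, 181 and 26 with anti-LIF. Serpini2 thus also passed the filter on low counts through the anti-LIF arm. Serpini2 rose 10.4-fold (3.38 ± 0.90 SE, adjusted p = 0.0218), and by 5.06 on the log2 scale without IgG-203, but it did not pass without IgG-345 (3.10, adjusted p = 0.0541), IgG-393 (3.15, 0.0577) or LIF-354 (3.11, 0.0535). The acinar list was highest in IgG-203 among the IgG tumours (0.239% of counts) and lowest in LIF-391 among the anti-LIF tumours (0.345%). The part of acinar RNA in the Serpini2 values was not tested.

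Serpini1, or neuroserpin, an inhibitor of tissue plasminogen activator (chr3:75557533-75642523), stood at 16.5, 18.3, 18.1 and 14.8 CPM with IgG and at 6.58, 10.8, 12.3 and 10.4 CPM with anti-LIF. The arms did not overlap, and Serpini1 fell 1.69-fold (−0.76 ± 0.19 SE, adjusted p = 0.0172). Scaled to the epithelial list its log2 fold change turned to 0.27 and did not pass (adjusted p = 0.276). The part of epithelial RNA in the Serpini1 values was not tested.

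**Figure D5:**
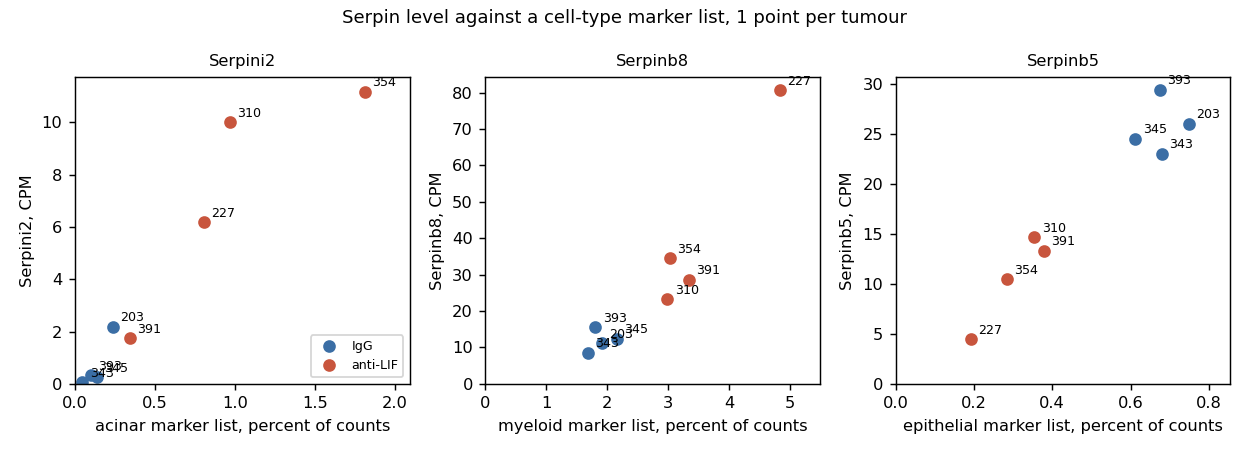
Serpini2, Serpinb8 and Serpinb5 in CPM against the share of counts in the acinar, myeloid and epithelial marker lists, 1 point per tumour with its mouse number (blue, IgG; red, anti-LIF). LIF-227 has the highest myeloid share (4.84%) and Serpinb8 level and the lowest epithelial share (0.193%) and Serpinb5 level, and LIF-354 has the highest acinar share (1.81%) and Serpini2 level.

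Below the filter, 4 genes passed the threshold when no filter was applied, and they are named after their values were seen. The fit without a filter called 10.8% of 19906 genes higher and 11.6% lower. Serpina6, the corticosteroid carrier, had 8, 0, 1 and 3 counts with IgG and 32, 22, 80 and 7 with anti-LIF (adjusted p = 0.0176). The thyroxine carrier gene Serpina7, on the X chromosome, had 7, 9, 8 and 5 counts against 9, 39, 30 and 15 (adjusted p = 0.0209). By contrast Serpina11 had 17, 58, 46 and 4 counts against 2, 6, 2 and 6 (adjusted p = 0.0356), and Serpine3 had 9, 10, 25 and 7 against 1, 2, 1 and 4 (adjusted p = 0.0232). DESeq2, which called 16.7% of genes with an adjusted p higher and 16.4% lower, also passed these 4 genes in the same directions, and Serpinb10 as higher.

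Genes of the proteases, receptors and clients on which serpins act, and of proteins that work with these, were counted from lists written for this purpose. The plasminogen activation list also holds the membrane proteases St14, Tmprss2, Prss8 and Hpn, so its counts are not of plasminogen activators alone. It had 12 tested genes, of which 0 rose and 6 fell, with a median log2 fold change of −0.58. Among all tested genes 15.7% were higher and 16.5% lower. The epithelial marker list, with which the plasminogen activation list shares no gene, fell in 13 of 16. Scaled to that list, 5 of the 12 were higher and 1 lower, and without IgG-343 and IgG-345 0 were higher and 2 lower. Vldlr, an endocytic receptor that clears serpin and protease complexes, fell 4.91-fold (38.0 ± 4.44 to 7.73 ± 2.05 CPM), and the membrane proteases Tmprss2 and Prss8 fell 2.51-fold and 1.64-fold. Among 16 coagulation genes 3 rose and 4 fell (median 0.02), beside the same shares of all tested genes. The 3 with the lowest p all fell: F3, tissue factor (2.91-fold), Proc (1.88-fold) and F8 (2.68-fold). Scaled to the epithelial list, 10 of the 16 were higher and 1 lower. Scaled to the myeloid list 0 were higher and 9 lower, and without IgG-343 and IgG-345 0 were higher and 3 lower.

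The list for complement C1 and the lectin pathway holds proteases that Serping1 inhibits, together with C1q chains and other recognition proteins, which are not proteases. Of its 9 tested genes 5 rose and 0 fell (median 0.83), beside 15.7% higher and 16.5% lower among all tested genes. Scaled to the myeloid list, 1 was higher and 3 lower, and without IgG-343 and IgG-345 0 were called. C1qa, C1qb and C1qc, macrophage products that also stand in the myeloid list, rose 2.73-fold, 2.79-fold and 2.50-fold. Of 10 cysteine cathepsins 6 rose and 3 fell (median 0.61), beside the same shares of all tested genes. Ctsc was up 2.66-fold and Ctsz up 1.73-fold, and Ctsk was down 3.75-fold. Scaled to the myeloid list, which also holds Ctss, 0 cathepsins were higher, and without IgG-343 and IgG-345 3 were higher. Serpinb1a, Serpinb6a and Serpinb9 inhibit some leukocyte granule proteases. The list of these, which also holds the peroxidase gene Mpo, had 6 tested genes, of which 0 rose and 2 fell, beside the same shares. Without IgG-343 and IgG-345, 1 was higher and 0 lower. The 2 that fell in the fit of all tumours, Mcpt1 and Mcpt2, are mucosal mast cell proteases (2.67-fold and 2.66-fold). Whether the 3 named serpins inhibit them was not tested. Mcpt4 stood at a log2 fold change of −1.90 (edgeR adjusted p = 0.0546).

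Collagens and their modifying enzymes, the clients and partners of Serpinh1, had 2 of 18 tested genes higher and 2 lower (median −0.36). Among all tested genes 15.7% were higher and 16.5% lower. Plod3 and P4ha1, which hydroxylate collagen chains, rose 2.04-fold and 2.11-fold, and P4ha2 fell 1.91-fold. Among 13 other protease inhibitors 2 rose and 3 fell (median −0.24), beside the same shares. Cst3, a secreted cathepsin inhibitor, rose 1.79-fold, while Spint1 and Spint2, the inhibitors of matriptase, fell 1.88-fold and 1.68-fold.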

How the data were processed

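The submitters' processing notes name FastQC 0.11.2 for read quality, STAR 2.4.0k for alignment and mm10 as the genome build. Per the file headers, the authors counted exonic reads with HOMER, 1 transcript for each gene, into a deposited table of raw counts and a deposited table of FPKM. The HOMER version, annotation version and strand setting were each not given in the sources used here. For 5 serpins the FPKM table lists another transcript than the count table. Every value column belonged to a listed sample, with 0 left aside.

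Counts were fitted in R 4.3.3 with edgeR 4.0.16 (filterByExpr, TMM scaling, quasi-likelihood test, Benjamini-Hochberg adjustment). CPM are counts over the TMM library size. The labels name separate mice, and no mouse number occurs in both arms, so nothing pairs them. The members, lists and tests were chosen with earlier results of these data known. Named were all members past the threshold, the 10 highest by FPKM, a fixed set of members (1 of these genes is not reported here) and the 3 partner-list genes with the lowest p.

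Shared stretches of 50 bases were counted over GENCODE M21 transcripts. Simulated data of this design held 66 genes changed 1.5-fold, 63 changed 2-fold and 65 changed 4-fold, among 14711. There edgeR recovered 19.7%, 61.9% and 89.2% of them, in that order, with 8 false among 118 calls. The tumours gave 4731 calls among 14711 genes, and recovery with so large a share of genes called was not tested. Alternatives were other scalings, DESeq2 1.42.0, limma 3.58.1 (voom, and trend on log2 FPKM after adding 1 or 0.1), other filters, robust dispersion and leaving out libraries.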

Additional observations from a re-analysis of the deposited data

Results flagged for a closer look

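In 52 groups of 4 tumours (26 tested serpins in 2 arms), 5 held 1 tumour far from the other 3 by Dixon's criterion at 95%. Chance flags about 1 in 20 independent groups of normally distributed values. These groups reuse the same 8 tumours, and CPM were not put on a log scale, so that rate need not hold here. Serpinb2 stood at 55.2 CPM in IgG-393, beside 7.69 to 12.5 CPM in the other IgG tumours. IgG-203 held 2.18 CPM of Serpini2, beside 0.0549 to 0.324, and 1.89 CPM of Serpind1, beside 0.608 to 0.769. LIF-227 held 15.5 CPM of Serpina3n, beside 44.2 to 49.7, and 21.4 CPM of Serpinb6b, beside 31.6 to 33.1.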

How the results depend on the processing

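Of the 7 called serpins, Serpina10, Serpinb8, Serpinb5, Serpinb9b and Serpini1 kept their calls without each single tumour. Leaving out 1 tumour gave 2 (without LIF-354) to 7 (without IgG-203) members higher and 2974 (without IgG-343) to 4354 (without LIF-310) calls over all genes. Without IgG-343 and IgG-345 together, 0 members were higher and 1 lower, with 1437 calls over all genes, and Serping1 turned to −0.13. DESeq2 called 7 members higher and 5 lower, and the fit without a filter on low counts also called 5 lower. Scaling to the epithelial list moved the median log2 fold change of all genes to 1.08. It gave 17 members higher and 0 lower, 11554 calls over all genes (98.7% of them higher) and medians of 1.97 in clade a and 0.98 in clade b. On that scale Serpina3m (0.60), Serpina3n (0.75), Serpinb12 (0.59), Serpinb1a (0.85), Serpinb6b (0.70), Serpinb6a (1.103), Serpind1 (0.69), Serpine2 (0.43), Serpinh1 (1.02) and Serpini1 (0.27) turned positive. Scaling to the myeloid list moved that median to −1.01. It gave 3 members higher and 10 lower, 11685 calls over all genes (1.8% higher) and medians of −0.038 in clade a and −1.19 in clade b. There Serpina3f (−0.11), Serpina3i (−0.038), Serpinb9 (−0.57), Serpinf1 (−0.082), Serpinf2 (−0.27) and Serping1 (−0.41) turned negative. Both scalings move the whole scale by construction. Library size alone gave a clade b median of −0.32, and with limma on log2 FPKM 31.3% to 31.5% of calls were higher. Limma-voom gave 0.061 for Serpina3m and 0.10 for Serpina3n, and called Serpina3h higher (4.42, adjusted p = 0.0474). Without single tumours the sign changed for Serpina3m (−0.76 to 0.44), Serpina3n (−0.60 to 0.19), Serpinb6a (−0.15 to 0.064), Serpind1 (−0.85 to 0.12) and Serpinh1 (−0.15 to 0.094), none of them called. The cause was not tested. No paired analysis was possible because the arms share no mouse number. Depth limits the 25 members below the filter, whose values rest on few counts.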

Other observations

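Over all 24537 genes of the count table, 2 had 0 counts in both IgG-343 and IgG-345 and at least 20 counts in each of the other 6 tumours. They were Serpina3h and the interferon-stimulated gene Ifi44l (chr3:151758737-151762891), which had 44 counts in each of IgG-203 and IgG-393 and 188, 142, 110 and 246 in the anti-LIF tumours. Both genes were singled out after their values were seen.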
